A study of Mus musculus with 2 samples.

Results

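Med14 and 9 further genes of the Mediator complex were examined in nuclei of an adult and an aged mouse heart, 10 genes of 25235 listed in at least 1 of the 2 libraries. They are Med14 and Med12 on the X chromosome and Med1, Med13, Med13l, Med23, Med24, Med27, Cdk8 and Cdk19 on autosomes. Med14 was chosen on measured values, its larger share of reads from the inactive X chromosome (Xi) in the aged library, so its values below are a description and no test. The other members were chosen by name, as genes of the same complex. All 10 had at least 20 reads in each library, the minimum used throughout.

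The data came from single-nucleus RNA-seq (snRNA-seq) of the heart of 1 female at 9 weeks of age (adult) and 1 female at 78 weeks (aged). Both were F1 hybrids of a C57BL/6J (BL6) mother and a CAST/EiJ (CAST) father. The strain field of the labels names a BL6 mother from an Xist-mutant line, whereas the genotype field and the titles give daughters without the mutation, and the study calls them wild type. X inactivation was therefore random in both hearts, and only nuclei whose active X chromosome (Xa) was the BL6 one were pooled. In these pools a BL6 read of an X-linked gene is taken to come from the Xa and a CAST read from the Xi, while an autosomal gene could give reads from both alleles. Per the methods of the study, doublets and ambient RNA were removed from the expression matrices, whereas the allelic reads were drawn from the Cell Ranger alignments, so that reads of ambient RNA may remain in them. CAST reads from ambient RNA or from remaining doublets with a CAST Xa cannot be told apart from Xi reads in these counts. A read was counted when it covered a position at which BL6 and CAST differ (SNP). No age had a second library, so that the age of the animal, the animal itself and the library cannot be told apart, no test between ages was made, and every interval below covers counting error only.

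Mediator is a large protein complex that passes signals from transcription factors bound at enhancers to RNA polymerase II at promoters. Its core is built from a head, a middle and a tail module, which MED14 holds together as the backbone. A kinase module made of MED12, MED13, cyclin C and CDK8, or of their paralogs, binds the core reversibly and controls its contact with the polymerase. In female mammals 1 X chromosome is silenced early in development, and the genes that are still transcribed from it are called escapees. Most subunits are encoded on autosomes, whereas Med14 and Med12 lie on the X chromosome.

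In the adult library 24015 genes shared 9747535 SNP-overlapping reads, and in the aged library 22691 genes shared 5805807. To compare libraries, reads were scaled to 1000000 SNP-overlapping reads of all genes (RPM), so that 1 read equals 0.103 RPM at 9 weeks and 0.172 RPM at 78 weeks. On this scale the median autosomal gene that reached 100 reads in each library had an aged over adult ratio of 1.16 (n = 7068), a shift of 0.21 on the log2 scale, and ratios are therefore also given relative to this median. BL6 reads made up 97.1% of X-linked reads at 9 weeks and 96.6% at 78 weeks, and 53.4% and 53.8% of autosomal reads. Of the reads of Xist, the RNA that coats the Xi, 95.8% and 96.9% were of CAST. The 6 cardiomyocyte markers summed to 27820 RPM at 9 weeks and 26030 RPM at 78 weeks, with all 6 detected in both.

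The Med14 locus spans X:12675371-12762106 on the minus strand of GRCm38, the build of all coordinates given here. It covers 86.7 kb, of which 10.1% is exonic by GENCODE M21, and the counts do not separate exonic from intronic reads. At its start it faces Gm14634, a noncoding transcript of the opposite strand at X:12762278-12821492, and 171 bases lie between the 2 listed loci. The RefSeq promoter window used here places the start site of Med14 at X:12761973, inside its listed locus. At its other end the Med14 locus overlaps 1810030O07Rik, a protein-coding gene of the same strand at X:12654879-12675377, by 7 bp. Med12 spans X:101274091-101298934 on the plus strand, covers 24.8 kb, of which 31.0% is exonic, and overlaps no other listed locus. The stretch between Med14 and Gm14634 is shown because both loci held a larger CAST share in the aged library, and the stretch before Med12 as that of the other X-linked member. The first lies at X:12762107-12762277 and the second at X:101273841-101274029, where it stops before the first GENCODE exon of Med12. Both were taken from the RefSeq promoter windows of GRCm38.p6 and are given on the plus strand, with GGGCGG or its reverse complement CCGCCC in capitals.
Med14 to Gm14634: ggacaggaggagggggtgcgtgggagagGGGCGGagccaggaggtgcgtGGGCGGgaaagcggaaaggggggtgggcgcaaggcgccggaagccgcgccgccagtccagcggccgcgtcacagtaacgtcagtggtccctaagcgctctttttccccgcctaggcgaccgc
Before Med12: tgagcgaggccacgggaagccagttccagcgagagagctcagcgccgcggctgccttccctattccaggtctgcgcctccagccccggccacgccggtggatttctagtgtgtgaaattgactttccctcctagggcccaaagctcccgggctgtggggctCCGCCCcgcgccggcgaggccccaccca

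GGGCGG, the core of the GC box, was found at 2 positions between Med14 and Gm14634 and at 1 position before Med12, searched on both strands. Among 27025 RefSeq promoter windows, the same 171 positions held at least 1 match in 30.1% and at least 2 in 14.1%, and the 189 positions used for Med12 held at least 1 in 22.6%. The dinucleotide CG, which each GGGCGG match contains, occurred 19 times in the stretch between Med14 and Gm14634 and 16 times in the Med12 stretch. At the same positions 89.5% and 86.6% of the windows held fewer. Both stretches were thus rich in CG, and the letters are given as a description of the 2 loci.

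The adult library held 1644 BL6 reads of Med14 beside 118 of CAST, and the aged library 951 beside 272. At 9 weeks the CAST share was thus 6.70% (95% Clopper-Pearson interval 5.57 to 7.97), and at 78 weeks it was 22.2% (19.9 to 24.7). The allelic ratio, the BL6 share of the reads as a fraction, was 0.933 for the adult heart and 0.778 for the aged one, a difference of 0.155 (Newcombe interval 0.130 to 0.182). At a cutoff of 0.9 or lower for escape, Med14 was thus above the cutoff in the adult and below it in the aged library, and the intervals of the libraries did not overlap. Over the 338 X-linked genes that reached 20 reads in each library, 11 (3.25%) had an allelic ratio lower by 0.1 or more in the aged library. A ratio higher by 0.1 or more was found in 7 of the 338. In 5.62% the aged interval lay below the adult one. These values chose Med14 and are given as a description.

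The scaled reads of Med14 differed between the libraries mainly on the CAST allele. Its CAST reads were at 12.1 RPM at 9 weeks and 46.8 RPM at 78 weeks, a ratio of 3.87 (exact conditional interval 3.11 to 4.85). Its BL6 reads were at 169 and 164 RPM, a ratio of 0.971 (0.896 to 1.05). The interval of the BL6 ratio included 1 on the RPM scale. Relative to the median autosomal gene the BL6 ratio was 0.839 (0.774 to 0.910, with the median taken as fixed), an interval below 1, and the CAST ratio was 3.34. Scaling to the BL6 reads of X-linked genes put the BL6 ratio at 1.03, on the other side of 1. The X-linked genes had a median BL6 ratio of 1.04 and a median CAST ratio of 0.972, the latter over the 309 genes with CAST reads in the adult library.

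Over both alleles, Med14 was at 181 RPM at 9 weeks and 211 RPM at 78 weeks, a ratio of 1.17 (1.08 to 1.25). Relative to the median autosomal gene this ratio was 1.01, a value that the choice of scale cannot change. The CAST reads were higher by 34.7 RPM and the BL6 reads changed by -4.86 RPM, which left a sum of 29.9 RPM. Of the X-linked genes, 60.9% had a lower ratio of all reads than Med14.

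A ratio of CAST to BL6 reads needs no scale between libraries. CAST reads of Med14 amounted to 7.18% of its BL6 reads at 9 weeks and 28.6% at 78 weeks, and the second ratio was 3.98 times the first (conditional interval 3.15 to 5.06). Med14 gave 1.60% of 7393 X-linked CAST reads at 9 weeks and 5.54% of 4914 at 78 weeks. The summed CAST reads of X-linked genes were at 787 and 866 RPM, taken over a different set of X-linked genes than these totals.

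Markers of several cell types differed between the libraries beside these values. Those of fibroblasts, as a sum, were at 604 RPM at 9 weeks and 969 RPM at 78 weeks, with 4 of the 5 that had at least 20 reads higher. The markers of endothelial cells were at 559 and 872 RPM (5 of 6 higher), of pericytes at 122 and 227 RPM (4 of 5), of smooth muscle at 100 and 303 RPM (4 of 4) and of macrophages at 158 and 267 RPM (4 of 4). On this scale 7982 of 12390 autosomal genes were higher in the aged library, with a median ratio of 1.17. The sums of these cell types had ratios from 1.56 (endothelial cells) to 3.02 (smooth muscle). Markers of lymphocytes were at 52.0 and 43.6 RPM and of red blood cells at 174 and 156 RPM. The cardiomyocyte sum had a ratio of 0.936, although 4 of its 6 markers were higher. Kcnj8 among the pericyte and Hba-a1 among the red blood cell markers were not listed, and the lymphocyte marker Cd3e was at 0 in the aged library. In pooled nuclei, fewer nuclei of a type and less RNA per nucleus cannot be told apart, and the part of cell composition in the values of Med14 and the other members was not tested.

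**Figure D1:**
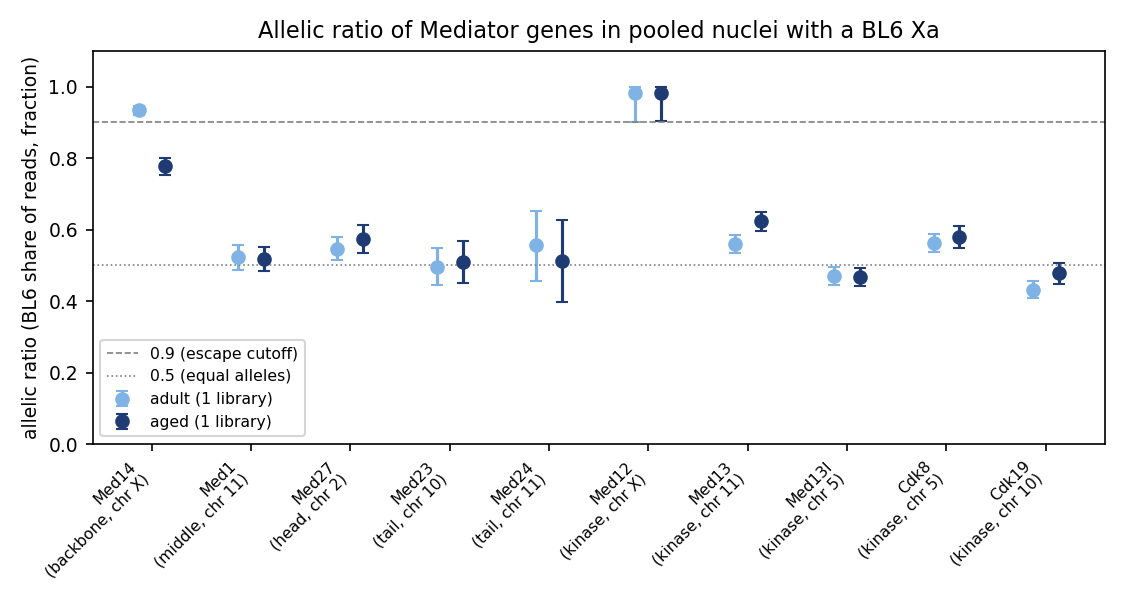
Allelic ratio, as a fraction, of the 10 Mediator genes in the adult (light blue) and the aged library (dark blue), with module and chromosome under each name. Points are 1 library each and bars are 95% Clopper-Pearson intervals. Med14 goes from 0.933 to 0.778, Med12 stays near 0.98, and the autosomal genes lie between 0.432 and 0.622.

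By its CAST share, Med14 ranked 48th of the 338 X-linked genes in the adult and 17th in the aged library. The median X-linked gene had a CAST share of 2.36% at 9 weeks and 2.34% at 78 weeks. The constitutive escapees Kdm6a, Kdm5c, Eif2s3x and Ddx3x, which are known to be transcribed from the Xi in many mouse tissues, served as a reference. Kdm6a, a histone demethylase gene, had CAST shares of 46.5% and 47.5%, Kdm5c, another demethylase gene, 32.8% and 35.4%, and the translation factor gene Eif2s3x 31.2% and 34.3%. Ddx3x, an RNA helicase gene with 88 and 59 reads, had 36.4% and 44.1%. In the aged library Med14 was below each of them, and the upper limit of its share, 24.7%, lay under the lower limit of each, the lowest of which was 27.9% for Eif2s3x. For all 4 escapees the interval of the change between libraries included 0.

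Over the 191 X-linked genes that reached 100 reads in each library, Med14 and 1810030O07Rik alone had an allelic ratio lower by 0.1 or more in the aged library. In either direction 5 of the 191 differed by 0.1 or more. The difference of Med14 (0.155, adult minus aged) was the largest of the 191, and the largest toward BL6 was close to it in size (-0.152). Of the 338 genes, Gm34836, Pcdh11x, Nyx and Gm14634 had a larger difference toward CAST than Med14, and the largest difference toward BL6 was -0.196. Gm34836, Pcdh11x and Nyx had between 21 and 38 reads in each library. Among genes with at least 100 reads in each library, those whose pair of CAST shares lay nearest to that of Med14, by Euclidean distance in percentage points over the 2 libraries, were 1810030O07Rik (7.78), Smpx (9.33), Wdr45 (12.6), Ftx (13.1) and Tspan7 (13.4). With fewer reads, Gm14634 (1.61), Prps1 (3.30), Nyx (5.07) and Pcdh11x (6.47) were nearer than all of these, with 21 to 95 reads in the aged library. Smpx, which encodes a small muscle protein, had CAST shares of 15.8% and 24.1%, and the noncoding RNA gene Ftx of the X-inactivation center had 18.4% and 16.4%.

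**Figure D2:**
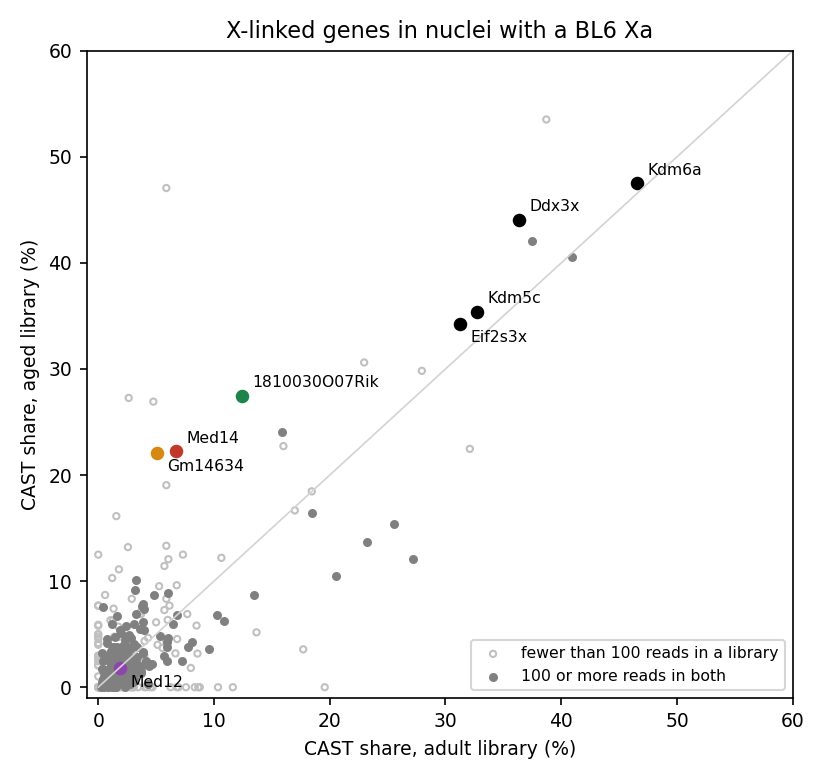
CAST share of the reads, in percent, of 338 X-linked genes in the adult (x axis) and the aged library (y axis), 1 library each. Filled grey points have at least 100 reads in both libraries and open points fewer in at least 1, and the line marks equal shares. Med14 (6.70% and 22.2%), Gm14634 and 1810030O07Rik lie above the line, Med12 lies in the lower left with most genes, and the constitutive escapees (black) lie close to the line at higher shares.

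Med12 encodes the subunit that activates CDK8 and CDK19 in the kinase module. Of its reads, 53 were BL6 and 1 was CAST in the adult library, and 55 were BL6 and 1 was CAST in the aged library. The CAST share was hence 1.85% (0.0469 to 9.89) at 9 weeks and 1.79% (0.0452 to 9.55) at 78 weeks. The share differed by -0.0661 percentage points between the libraries (-8.12 to 7.74), whereas that of Med14 differed by 15.5 (12.97 to 18.2). An increase of Med12 as large as that of Med14 lay outside the interval. A share up to 7.74 percentage points higher lay inside the interval at this depth.

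Over both alleles Med12 was at 5.54 RPM at 9 weeks and 9.65 RPM at 78 weeks. The ratio was 1.74 (1.18 to 2.58), and 1.505 relative to the median autosomal gene. Its BL6 reads had the same ratio, 1.74 (1.17 to 2.59), and with 1 CAST read in each library no CAST ratio is given. Of the X-linked genes, 89.1% had a lower ratio of all reads. On the RPM scale Med14 thus had a higher CAST level and no higher BL6 level in the aged library, whereas Med12 had a higher BL6 level. With 1 CAST read in each library, the CAST level of Med12 could not be compared between the libraries. Among genes with at least 100 reads in each library, the nearest to Med12 in CAST shares were Phka2, LOC108168482, Jade3, Bcor and Aff2, all within 0.458 percentage points of it, at shares where 1 read more or fewer in Med12 would reorder them. Renbp, with 60 and 59 reads, lay 0.206 percentage points from it.

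The loci next to Med14 were then compared with it. Within 500 kb on either side, 5 of 12 listed loci had at least 20 reads in both libraries. Gm14634, which starts opposite to Med14, had 17 CAST beside 317 BL6 reads at 9 weeks, and 21 beside 74 at 78 weeks. Its CAST shares were 5.09% (2.99 to 8.02) and 22.1% (14.2 to 31.8), close to the shares of Med14. Unlike Med14, it had fewer scaled BL6 reads in the aged library, with a ratio of 0.392, beside CAST reads at 1.74 and 3.62 RPM. The larger CAST share of Gm14634 therefore went along with a lower BL6 level and, on the RPM scale, a higher CAST level. That CAST level rested on 17 and 21 reads, and no interval of its ratio is given. The larger share of Med14 went along with a higher CAST level at a BL6 ratio of 0.971 on the RPM scale and 0.839 relative to the median autosomal gene.

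1810030O07Rik, past the 3′ end of Med14, had 21 CAST beside 148 BL6 reads at 9 weeks, and 33 beside 87 at 78 weeks. Its CAST share was 12.4% (7.86 to 18.4) and 27.5% (19.7 to 36.4), and its BL6 ratio was 0.987. In this it resembled Med14, with CAST reads at 2.15 and 5.68 RPM and a BL6 level that was nearly equal in both libraries on the RPM scale. As the 2 loci lie on 1 strand and overlap, and the sources used here do not say how reads of overlapping loci were assigned, transcripts that run on from Med14 cannot be told apart from those of 1810030O07Rik.

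The next loci on both sides did not share this difference at their depth. Atp6ap2, a gene for an accessory protein of the vacuolar proton pump that lies 58.3 kb away, had CAST shares of 5.33% and 4.85%, a difference of -0.479 percentage points (-6.05 to 6.07). Usp9x, a deubiquitinase gene 309 kb away, had 3.93% of 1525 reads and 5.40% of 1111 reads, a difference of 1.47 percentage points (-0.147 to 3.19). 5730405O15Rik, 280 kb away, had 1 CAST read in each library, of 131 and 38 reads. The upper limits for Atp6ap2, Usp9x and 5730405O15Rik were all below the lower limit of Med14, 12.97 percentage points.

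Around Med12, 7 of 15 loci had at least 20 reads in both libraries, and none had a CAST share higher by 10 percentage points or more, the difference that 3.25% of X-linked genes had. Dlg3, Tex11, Snx12, Nono, Itgb1bp2, Taf1 and Ogt had CAST shares between 0.0% and 6.00% at 9 weeks and between 0.0% and 7.69% at 78 weeks. Ogt, which encodes the enzyme that adds O-linked N-acetylglucosamine to nuclear and cytoplasmic proteins, had 4.35% at 9 weeks and 2.01% at 78 weeks, a difference of -2.35 percentage points (-3.96 to -0.763). It was the only one of the 7 whose interval of the difference excluded 0. For Tex11, with 22 and 26 reads, the interval reached from -8.18 to 24.1 percentage points, so that a difference as large as that of Med14 lay inside it.

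**Figure D3:**
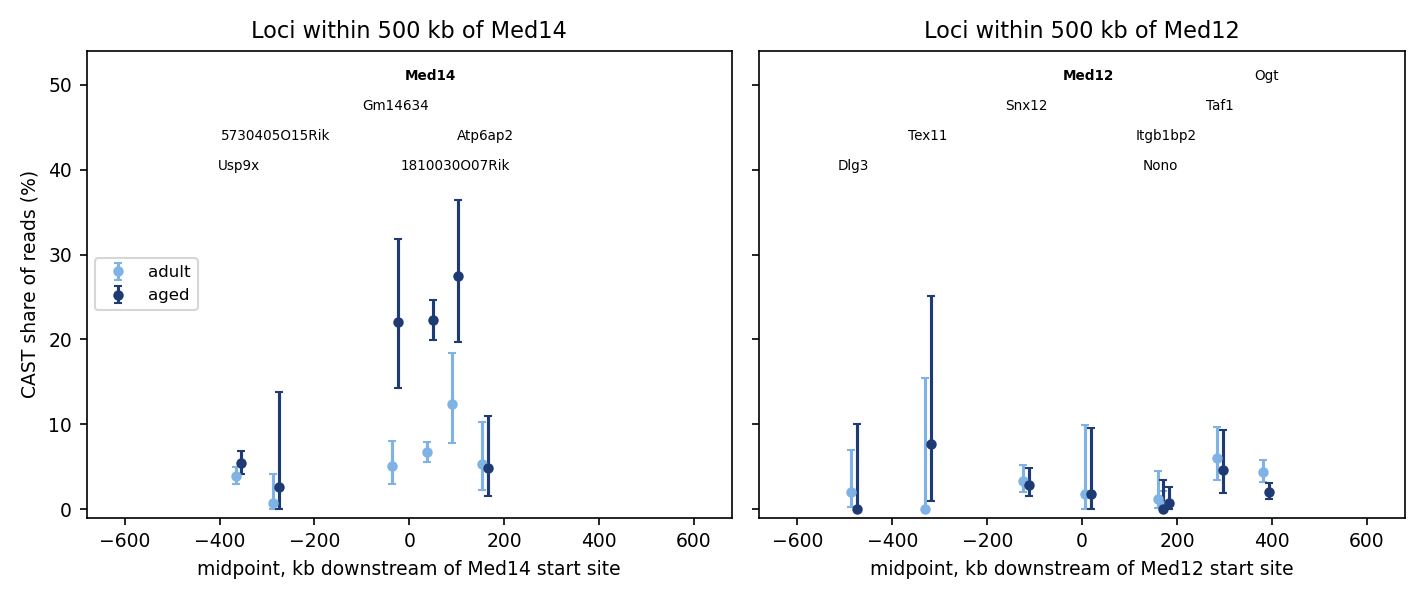
CAST share of the reads, in percent, of the loci within 500 kb of Med14 (left) and of Med12 (right) with at least 20 reads in both libraries. The x axis gives the distance of the middle of each locus from the start site in kb, with positive values downstream, adult and aged points are set slightly apart, and bars are 95% Clopper-Pearson intervals. Med14 and the 2 loci next to it have aged points (dark blue) at 22.1% to 27.5%, above and apart from the adult points (light blue), and Ogt is the one locus with an aged interval below the adult one.

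The 8 autosomal members, whose alleles are both active, had allelic ratios between 0.432 and 0.562 at 9 weeks and between 0.466 and 0.622 at 78 weeks. None differed by 0.1 or more, where 28.1% of 12390 autosomal genes did. Of the 8, 7 had at least 100 reads in each library, and 14.7% of the 7068 autosomal genes with that depth differed by 0.1 or more. The median difference, adult minus aged, was -0.0144 over the 8 genes, with 3 lower and 5 higher in the aged library, beside a median of -0.00118 over all autosomal genes. The intervals of the libraries were separate for 1 of the 8, Med13, and for 11.8% of all autosomal genes.

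By scaled reads of both alleles, each of the 8 autosomal members was higher in the aged library, as were 7982 of 12390 autosomal genes. The ratios of the 8 ran from 1.11 to 1.77, with a median of 1.26. Relative to the median autosomal gene, however, Med27 (0.997) and Cdk19 (0.956) lay below 1. At a ratio of 1.5 or more, 2 of the 8 were higher, Med1 and Med13l, where 28.3% of autosomal genes were. None was lower by that factor, where 11.7% of autosomal genes were. Relative to the median autosomal gene, Med1 alone was past 1.5, where 18.6% of autosomal genes were. Counts of 2 and 1 of 8 lie near these shares, so they show nothing about the members as a group.

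**Figure D4:**
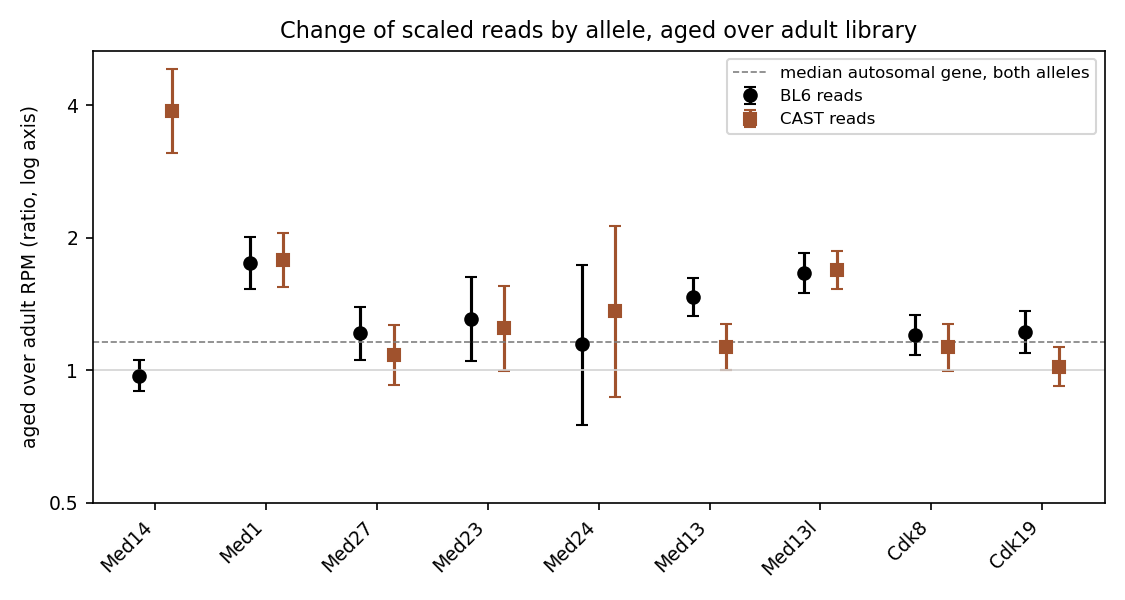
Aged over adult ratio of scaled reads (log axis) of BL6 (black circles) and CAST reads (brown squares) for 9 Mediator genes, with 95% conditional intervals. The grey dashed line is the median autosomal gene over both alleles (1.16), and Med12 is left out because it had 1 CAST read in each library. In Med14 the CAST ratio (3.87) lies far above the BL6 ratio (0.971), while in the autosomal genes the ratios of both alleles lie closer together, for instance 1.47 and 1.13 in Med13.

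In the kinase module, Med13 and its paralog Med13l encode the subunit that joins the module to the core. Med13 (11:86265715-86357525) had 865 BL6 beside 681 CAST reads at 9 weeks, and 755 beside 458 at 78 weeks. Its allelic ratios were 0.560 (0.534 to 0.584) and 0.622 (0.594 to 0.650), a difference of -0.0629 (-0.0995 to -0.0259), toward BL6. Its BL6 reads had a ratio of 1.47 and its CAST reads of 1.13, so that the allele with the larger ratio was the one that had the smaller ratio in Med14. The Med13 locus overlaps Brip1os over 38.7 kb, a locus with 723 and 487 reads of its own. Med13l (5:118560701-118765438) had allelic ratios of 0.470 and 0.466, with 159 RPM at 9 weeks and 267 RPM at 78 weeks. Its ratio was 1.68 (1.56 to 1.80) over both alleles, with 1.66 for BL6 and 1.69 for CAST. Over both alleles Med13 had a ratio of 1.32 (1.22 to 1.42), from 159 to 209 RPM, whose interval lay below that of Med13l.

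Cdk8 and Cdk19 encode the alternative kinases of the module. Cdk8 (5:146230802-146302874) was at 157 RPM at 9 weeks and 183 RPM at 78 weeks, a ratio of 1.17 (1.08 to 1.27), and its allelic ratios were 0.562 and 0.579. Cdk19 (10:40349308-40483818) was at 182 and 202 RPM, a ratio of 1.11 (1.03 to 1.19), the lowest of the 8. It was the one member with more CAST than BL6 reads in both libraries beside Med13l, with allelic ratios of 0.432 and 0.477, a difference of -0.0452 (-0.0818 to -0.00847). For Cdk8 the interval of the difference was -0.0549 to 0.0225. Both kinase genes therefore lay near the median autosomal gene, at 1.01 and 0.956 of it, as Med14 did over both alleles.

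Med1, the middle-module subunit that nuclear receptors bind, had the highest ratio of the 10 genes, with that of Med12 (1.74) inside its interval. Its locus lies at 11:98152154-98193314. Its BL6 reads numbered 431 and 450 and its CAST reads 394 and 418, or over both alleles 84.6 and 150 RPM, a ratio of 1.77 (1.60 to 1.95). Both alleles were higher, with ratios of 1.75 for BL6 and 1.78 for CAST, and the allelic ratio was 0.522 and 0.518. In contrast to Med14, its BL6 reads (33.3 RPM more) and its CAST reads (31.6 RPM more) shared the difference about equally.

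Med27 in the head module, at 2:29346810-29524790, was at 93.05 and 107 RPM, a ratio of 1.15 (1.04 to 1.28), with allelic ratios of 0.547 and 0.575. Of the tail subunits, Med23, which receives signals from growth factor pathways, lies at 10:24869986-24913529 and was at 39.5 and 50.5 RPM, a ratio of 1.28 (1.09 to 1.49), with allelic ratios of 0.496 and 0.509. Med24, at 11:98704591-98729475, had 108 reads at 9 weeks and 80 at 78 weeks. Its ratio was 1.24 (0.920 to 1.68) and its allelic ratios 0.556 and 0.512. Med24 was the one autosomal member whose ratio had an interval that included 1. With these reads the interval of its difference in allelic ratio was wide, from -0.0989 to 0.183.

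Levels of different genes were compared per kb of locus, as the reads come from whole gene bodies of nuclear RNA, and the number of SNPs in each locus was not known. In the adult library Cdk8 (2.17 RPM per kb), Med14 (2.08) and Med1 (2.06) were highest, and neighbours in this order had overlapping Poisson intervals. Med13 (1.73), Cdk19 (1.36), Med23 (0.907), Med13l (0.778), Med27 (0.523), Med24 (0.445) and Med12 (0.223) followed. Each of these was separate from its neighbour except Med27 from Med24. In the aged library Med1 (3.63 RPM per kb) came first, ahead of Cdk8 (2.54), Med14 (2.43) and Med13 (2.28), whose neighbours overlapped. Med12 was again last, at 0.388, with an interval that overlapped that of Med24 (0.554).

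The wider list of Mediator genes held 33 genes, all listed in the files, of which 26 had at least 20 reads in both libraries. Med12l, Med16, Med19, Med10, Med11, Med8 and Med31 fell below this minimum. Over the 26 genes the median aged over adult ratio was 1.33, beside 1.17 over all autosomal genes with at least 20 reads in both libraries. Of the 26, 23 had a ratio above 1 on the RPM scale, where 7982 of 12390 autosomal genes did. Relative to the median autosomal gene (1.157, over the 7068 genes with at least 100 reads) 21 of the 26 did, with the X-linked Med14 and Med12 among them. This median by construction has as many of its 7068 genes above as below it. Against the median of the genes with at least 20 reads (1.168), Med14 (1.165) lay just below. At 1.5 or more, 10 were higher and 1 was lower, and relative to the median autosomal gene 6 were higher and 1 lower. Among the 24 autosomal genes of the list, 9 (37.5%) were higher by that factor where 28.3% of autosomal genes were, and 5 (20.8%) relative to the median where 18.6% were.

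The highest ratios were those of Med6 (2.18, 1.79 to 2.66) and Med18 (1.84, 1.18 to 2.86), subunits of the head, and Med25 (1.92, 1.45 to 2.54), a subunit at the tail that is bound by activators. The lowest were those of the head subunit Med30 (0.392, 0.273 to 0.551) and of Med4 (0.844, 0.656 to 1.08) and Med7 (0.978, 0.664 to 1.42) in the middle. Med30 was the one gene whose interval lay below 1. It had 180 reads at 9 weeks and 42 at 78 weeks. By module, the median ratio was 1.34 over 9 genes of the head, 1.32 over 6 of the middle, 1.44 over 4 of the tail and 1.41 over 6 of the kinase module, so that Med14 (1.17) was below the median of each. Of the 24 autosomal genes 5 differed in allelic ratio by 0.1 or more, where 28.1% of autosomal genes did, namely Med22 toward CAST, with allelic ratios of 0.600 and 0.350, and toward BL6 Med29 (-0.242), Med25 (-0.128), Med26 (-0.114) and Med7 (-0.102). These had between 20 and 113 reads in each library. Med14 and Med13 were the 2 genes of the 26 whose allelic ratio intervals were separate between the libraries, in opposite directions.

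**Figure D5:**
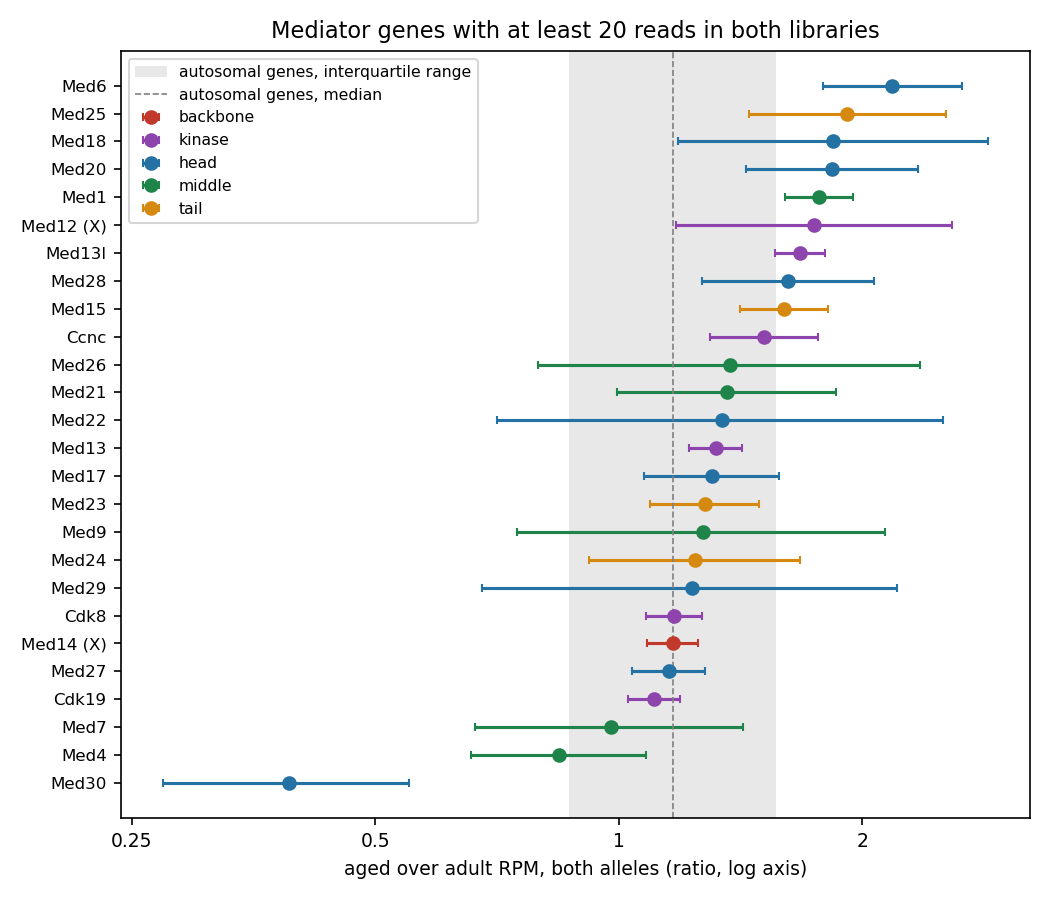
Aged over adult ratio of the scaled reads of both alleles (log axis) for the 26 Mediator genes with at least 20 reads in both libraries, 1 library per age, colored by module and with 95% conditional intervals. The dashed line is the median (1.17) and the grey band the interquartile range (0.868 to 1.57) of 12390 autosomal genes. Med14 lies at the median, Med6 highest and Med30 lowest.

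Shares of reads within the complex need no scale between libraries. Summed over the 33 genes, Mediator reads were at 1335 RPM at 9 weeks and 1766 RPM at 78 weeks. Of these reads Med14 gave 13.5% (12.96 to 14.1) at 9 weeks and 11.9% (11.3 to 12.6) at 78 weeks, a lower share in spite of its additional CAST reads. Counted by its BL6 reads alone, beside both alleles of the other genes, it gave 12.7% and 9.53%. Med13l and Med1 gave larger shares in the aged library, 15.1% after 11.9% and 8.47% after 6.34%, while Cdk19 (13.7% and 11.4%) and Cdk8 (11.7% and 10.4%) gave smaller ones. Med12 gave 0.415% and 0.546%.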

How the data were processed

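Nuclei of 1 adult (9 weeks) and 1 aged (78 weeks) female BL6 × CAST heart were grouped by the age in their labels, although the aged file was named with a different age. The authors aligned the snRNA-seq reads with Cell Ranger (version 7.1.0 per the labels), ran CellBender against ambient RNA and DoubletFinder against doublets on the expression matrices, split the Cell Ranger alignments by nucleus, assigned an Xa to each nucleus from the allelic ratio of its X-linked reads, pooled those with a BL6 Xa and ran Allelome.PRO2 with RefSeq genes on GRCm38. For each gene the deposited values are raw counts of BL6, CAST and all SNP-overlapping reads. The authors also gave the allelic ratio as a fraction rounded to 2 decimals, which was used in an alternative only, and an allelic score, which was not used. Whether the counting used strand, and whether duplicate reads were collapsed before it, is not given in the sources used here, and reads of overlapping loci may be shared.

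Allelic ratios, RPM and ratios were computed from the counts in Python 3.11.15 (pandas 2.3.3, SciPy 1.17.1). Intervals are 95% Clopper-Pearson for shares, exact Poisson for RPM, conditional binomial for ratios and Newcombe for differences. All cover counting error only, and their code was tested on simulated data. Genes needed 20 reads in both libraries, which totaled 9747535 and 5805807 reads. A floor of 3 reads equals 0.308 and 0.517 RPM. X-linked backgrounds leave out Xist, Tsix and 7 genes excluded by the study for their allelic ratio in males. A change was called at a ratio of 1.5 or an allelic ratio difference of 0.1. Strands and exons came from GENCODE M21 and promoter windows from RefSeq (GRCm38.p6), whose gene table gives the same chromosome and start as the files for 66.4% of the names found.

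The members and lists were chosen with earlier results of these data known. Genes were named by a rule comprising the 10 members, the 3 highest and 3 lowest ratios of the wider Mediator list, the loci within 500 kb of Med14 or Med12, the 5 X-linked genes with at least 100 reads most like each of them in CAST share, and 4 constitutive escapees. Gm34836, Pcdh11x, Nyx, Prps1 and Renbp fall outside it and were named after their values were seen, as were Brip1os, the genes below the minimum and those with a called allelic ratio difference in the wider list. Alternatives were other scales, read minimums, cutoffs and lists, removal of overlapping loci, deposited allelic ratios and a correction by the autosomal odds of BL6 to CAST reads. The values of 1 marker list are not reported here.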

Additional observations from a re-analysis of the deposited data

How the results depend on the processing

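Of 46 alternative values, 33 stayed within the counting interval of the reported value, or within 1.5 times of a count, and 13 did not. None of the 13 turned its direction, and the BL6 ratio of Med14 crossed 1 within its interval (1.03, scaled to BL6 reads of X-linked genes). The ratio of the CAST reads of Med14 ranged from 3.34 to 4.12 over the scales and its difference in allelic ratio from 0.150 to 0.174. When the median autosomal gene was set to 1, the ratio of Med14 was 0.839 for BL6 reads and 1.01 for all reads, the median of the autosomal members 1.09 and that of the wider list 1.15. When BL6 reads of X-linked genes set the scale, these medians were 1.34 and 1.42, and the wider list with at least 100 reads gave 1.41. The count of 11 X-linked genes whose allelic ratio was lower by 0.1 or more became 4 at 50 reads, 2 at 100 reads, 36 at a difference of 0.05 and 5 without overlapping loci, the last of which leaves out Med14 itself. The share of Mediator reads held by Med14 differed by -1.61 percentage points in the aged library, and the difference was -3.63 without the kinase module in the sum and -5.55 with BL6 reads only.

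No paired analysis was possible because each age has 1 library. For the same reason leaving out a replicate could not be done. The depth of Med12 (54 and 56 reads) limits its CAST share to at most 9.89% and 9.55%, and differences between animals of the same age are not covered by any interval.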
